A study of Mus musculus with 12 samples.

Results

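The genes described here encode the machinery that copies DNA and the enzymes that supply its building blocks. The set held 51 genes chosen by symbol, and each was read from the brightest probe set that the array annotation gives to that gene alone, that is, the one with the highest mean over the 12 arrays. Of the 51 genes, 49 were measured in this way, out of 22180 genes with such a probe set. The remaining pair, Rfc4 and Ccne2, lay only on probe sets that they share with Eif4a2 and Ints8, so no value is given for them. The genes were placed in 8 functional subgroups, from the licensing of replication origins to the rebuilding of chromatin behind the fork.

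Expression was measured in regulatory T cells (Treg), the T cells that restrain immune responses and are defined by the transcription factor Foxp3. The cells were sorted by flow cytometry from spleens of DEREG mice, which carry a transgene with Foxp3 control sequences that drives a fusion of the diphtheria toxin receptor and green fluorescent protein. Diphtheria toxin (DTx) therefore kills cells that express Foxp3 in these mice. Every group came from mice made allergic to ovalbumin (OVA) by sensitization and airway challenge, a model of allergic airways disease, and each group held 4 biological replicates. The donors of eTreg, the endogenous Treg, received a control protein, human serum albumin (HSA), at 2 g/kg without DTx. For e_iTreg the mice received intravenous immunoglobulin (IVIg), pooled human IgG, at 2 g/kg without DTx, and the labels describe the cells as endogenous mixed with IVIg-induced Treg. For iTreg the endogenous cells were first removed with DTx at 40 ng/g, and IVIg followed at 2 g/kg. One protocol text, identical for every sample, puts DTx ahead of IVIg and of HSA. The series design gives DTx to the iTreg group alone and is followed here. Mice with both DTx and HSA were not analysed here, so the effects of IVIg and of DTx cannot be told apart between iTreg and eTreg. DTx spares cells that begin to express Foxp3 after the toxin is gone as well as any that escaped it, and the labels give no measure of how complete the depletion was, nor the age of the mice or whether animals were pooled.

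Replication starts at origins that are licensed in G1, when the origin recognition complex, Cdc6 and Cdt1 load rings of the MCM2-7 helicase onto DNA. At the start of S phase Cdc45, the GINS complex and Mcm10 turn these rings into active helicases, polymerases alpha, delta and epsilon copy the strands with the help of the PCNA clamp, and ribonucleotide reductase and thymidylate synthase make the deoxynucleotides. Many of these genes are transcribed under E2F factors, which pocket proteins of the Rb family hold back in resting cells and which cyclin E with its kinase releases. Lymphocytes that rest in the spleen express little of this machinery, and dividing T cells express much of it.

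The arrays carried the markers of the sorted cell type. The 6 Treg and T cell markers (Foxp3, Il2ra, Ctla4, Ikzf2, Cd3e and Cd4) had mean log2 values of 11.38 to 11.56 on the 12 arrays, and none differed between groups at the threshold used here. Markers of other splenic cells were present to different degrees. The mean of 12 measured B cell markers ran from 6.14 to 8.04 in eTreg, from 6.13 to 7.98 in e_iTreg and from 7.05 to 7.55 in iTreg, and it was lowest in eTreg replicates 3 and 4 and e_iTreg replicate 4. Plasma cell markers averaged 9.47 in iTreg replicate 4 and 7.22 to 7.95 on the other arrays. In iTreg minus eTreg, 0 of 12 B cell, 0 of 9 plasma cell and 0 of 8 neutrophil markers passed the test. All 9 plasma cell and all 8 neutrophil markers nevertheless had positive differences, with medians of 0.65 and 0.47. Of these, 5 and 3 had an unadjusted p below 0.05 in limma, against 21.7% of all probe sets. Higher past the threshold were 3 of 14 myeloid and 3 of 13 CD8 T and NK cell markers. Of all probe sets, 5.36% were called higher and 4.63% lower. Germinal centre B cell and erythroid markers, of cell types that divide in the spleen, averaged 6.81 to 7.17 and 6.40 to 6.68 on the 12 arrays, with 1 of 6 lower in each list (Fas and Gata1). Xist and Y-linked genes were both detected on 9 arrays, and the other 3 each carried the signal of 1 sex, though not of the same sex. Of these, e_iTreg replicate 4 had Xist at 5.82 and a Y-linked mean of 9.09. In eTreg replicate 3 and iTreg replicate 4, Xist was at 11.37 and 11.14 and the Y-linked mean at 4.94 and 4.84.

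The first comparison set iTreg, from mice given DTx and then IVIg, against eTreg, from mice given HSA without DTx. Replication genes were higher in iTreg than in eTreg across all 8 subgroups. Of 49 measured members, 46 rose and 0 fell in iTreg minus eTreg at an adjusted p below 0.05 (limma, Benjamini-Hochberg over 23521 probe sets), where 5.36% of all probe sets tested were called higher and 4.63% lower. The median difference of the members was 1.04 on the log2 scale, with a range of 0.14 to 2.32, against -0.01 over all probe sets. A log2 difference of at least 1, a doubling or more, together with the adjusted p was reached by 25 members, against 1.26% of all probe sets. The iTreg arrays lay above every eTreg array for 45 members, against 6.90% of all probe sets. On arrays of bulk RNA, more cells in a replicating state and more of these transcripts per cell cannot be told apart. With the 3 arrays that were lowest in B cell markers left out, so that 2 eTreg arrays remained, 15 members passed with a median difference of 0.86, and 0.897% of all probe sets were called higher.

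The same genes were set against the e_iTreg group, whose mice also received IVIg but kept their endogenous Treg. Here 45 of 49 members rose and 0 fell, with 6.49% of all probe sets called higher and 4.75% lower. The median difference was 1.05, with a range of 0.16 to 2.12, against -0.07 over all probe sets. Members that passed with a log2 difference of at least 1 numbered 25, against 1.30% of all probe sets, and the iTreg arrays lay above every e_iTreg array for 44 members, against 7.57%. With the sex-linked signal as a covariate, 28 members passed, with a median of 0.92 and 2.86% of all probe sets called higher. Both comparisons use the same 4 iTreg arrays, so the 2 counts are not independent.

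**Figure D1:**
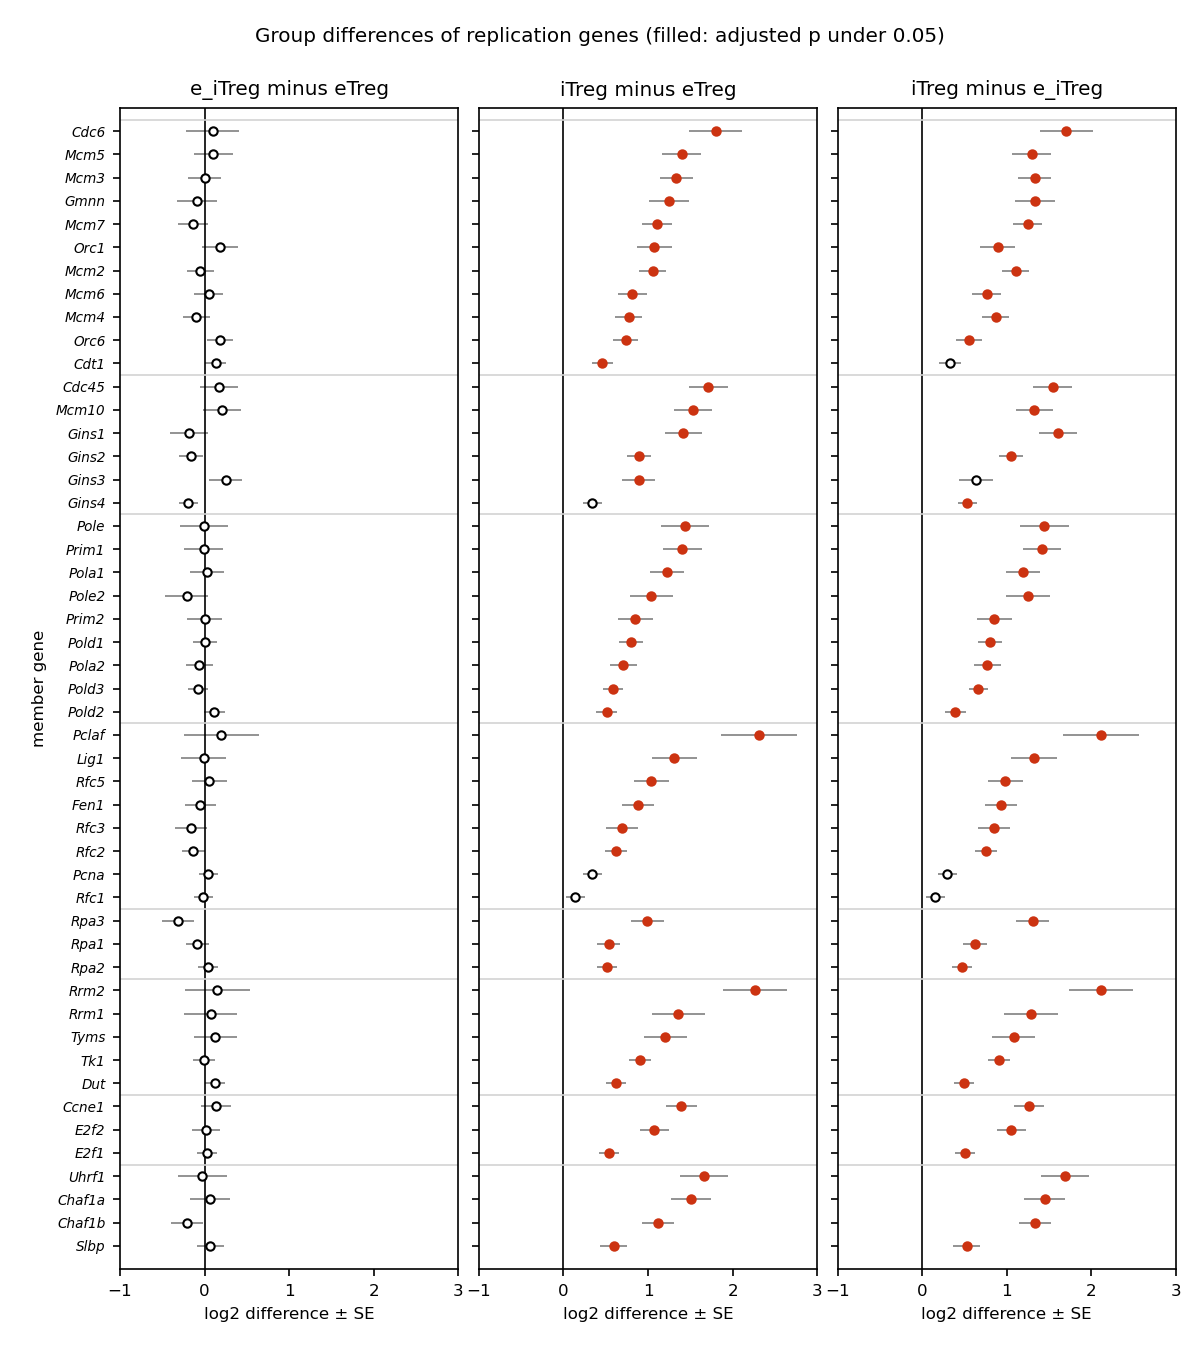
Log2 differences ± SE (x axis) of the 49 measured replication genes (y axis, grouped by subgroup and divided by grey lines), with 4 arrays per group. Filled points have an adjusted p below 0.05. All points of the left panel, e_iTreg minus eTreg, are open and lie between -0.31 and 0.25, and 46 and 45 points are filled in the other panels.

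Between e_iTreg and eTreg, no replication gene passed the test. The count was 0 of 49 both at an adjusted p below 0.05 and at an unadjusted p below 0.05, where 0% and 7.01% of all probe sets were called by limma. The e_iTreg arrays lay above every eTreg array for 0 members, against 2.63% of all probe sets. The median difference was 0.00, with a range of -0.31 to 0.25 and 26 members above 0, and the smallest adjusted p was 0.722. That value belonged to Gins4, a GINS subunit, at -0.19 ± 0.11 with a 95% interval of -0.43 to 0.05. Rpa3, the smallest RPA subunit, differed by -0.31 ± 0.19 (95% interval -0.73 to 0.10), and Gins3, another GINS subunit, by 0.25 ± 0.20 (-0.18 to 0.67). The next smallest p-values went to Orc6 at 0.18, Gins2 at -0.16, Chaf1b at -0.21, Dut at 0.12 and Cdt1 at 0.13. The intervals of the genes that vary most stayed wide, with -0.76 to 1.16 for Pclaf and -0.67 to 0.96 for Rrm2, so differences of these sizes were not detectable with 4 arrays per group.

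Promoter sequence was available for 42 of the 51 members, from RefSeq on the GRCm38.p6 build, as windows of 250 bases before to 50 bases after the gene start. Each window was searched on both strands for 4 spellings of the E2F binding word, TTTCCCGC, TTTGGCGC, TTTGCCGC and TTTCGCGC, and overlapping matches were counted. At least 1 word was found in 17 of 42 member windows (40.5%), against 554 of 16990 tested genes with a window (3.26%) and 744 of 32851 windows in all (2.26%). The licensing genes held it most often, in 7 of 9 windows, followed by 4 of 7 polymerase and primase genes and 3 of 8 clamp, loader and Okazaki genes. None of the 5 nucleotide genes and none of the 3 RPA genes had one of these words in its window. The stretches below are shown because they hold the word before the gene start in members that differed between iTreg and eTreg. Each is written 5′ to 3′ on the strand of the gene, with the E2F words in capitals.
Mcm6 (chr1:128359778-128359841, minus strand): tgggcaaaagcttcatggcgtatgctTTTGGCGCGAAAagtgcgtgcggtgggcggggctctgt
Mcm5 (chr8:75109330-75109393, plus strand): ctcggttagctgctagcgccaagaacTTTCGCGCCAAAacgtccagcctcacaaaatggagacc
Mcm7 (chr5:138172015-138172074, minus strand): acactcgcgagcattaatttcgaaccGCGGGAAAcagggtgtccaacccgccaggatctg
Orc1 (chr4:108579401-108579453, plus strand): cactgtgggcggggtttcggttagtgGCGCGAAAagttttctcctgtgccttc
Cdc6 (chr11:98907987-98908046, plus strand): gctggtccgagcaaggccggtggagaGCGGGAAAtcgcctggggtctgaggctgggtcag
Gins3 (chr8:95633492-95633551, plus strand): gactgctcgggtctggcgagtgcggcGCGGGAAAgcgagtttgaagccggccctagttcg
Pola1 (chrX:93632260-93632319, minus strand): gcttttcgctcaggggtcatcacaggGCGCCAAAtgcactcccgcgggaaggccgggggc
Rfc3 (chr5:151651209-151651244, minus strand): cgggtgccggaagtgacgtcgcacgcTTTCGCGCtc
Uhrf1 (chr17:56304102-56304161, plus strand): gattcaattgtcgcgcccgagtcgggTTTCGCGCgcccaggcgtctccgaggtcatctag

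In Mcm6 and Mcm5 the capitals are 2 overlapping words, one on each strand, and the first of them starts 110 (Mcm6) and 153 (Mcm5) bases before the gene start. In Rfc3 the word starts 10 bases before it. Other words were searched in the same windows. CCAAT, bound by NF-Y, was found in 61.9% of member windows against 41.6% of tested genes, and the GC box GGGCGG in 78.6% against 49.5%. TTTGAA, a core of the cell cycle homology region, was found in 14.3% against 17.8%. The 17 members with an E2F word had a median difference of 1.08 in iTreg minus eTreg, and 17 of 17 passed the test. The 24 measured members with a window and no such word had a median of 0.95, and 22 of 24 passed. In iTreg minus e_iTreg the medians were 1.19 and 0.96, and 15 of 17 and 22 of 24 passed. A match is a description of the letters and not a measured binding site. No window was available for Gins4, Mcm4, Ccne2, Pole, Rfc2, Gins2, Gmnn, Gins1 and Prim2, so they were not searched.

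All 11 origin licensing genes rose in iTreg minus eTreg, with a median of 1.07, and 10 of 11 rose in iTreg minus e_iTreg, with a median of 1.11. The exception in the second comparison was Cdt1, the MCM loader that geminin (Gmnn) inhibits, at 0.33 ± 0.13 (adjusted p = 0.115). Among the helicase subunits, Mcm3 measured 9.36, 8.81, 8.94 and 8.36 in eTreg, 8.96, 9.18, 8.89 and 8.44 in e_iTreg and 10.43, 9.98, 10.35 and 10.02 in iTreg. Every iTreg array was above every other array, and the differences were 1.33 ± 0.19 over eTreg (adjusted p = 0.0012) and 1.33 ± 0.19 over e_iTreg (adjusted p = 0.00117). Mcm2 measured 9.14, 8.73, 8.63 and 8.70 in eTreg, 8.87, 9.08, 8.62 and 8.44 in e_iTreg and 10.08, 9.61, 10.03 and 9.71 in iTreg. Its groups did not overlap either, with differences of 1.06 ± 0.16 and 1.11 ± 0.16. Mcm7, one of the genes whose promoter stretch is printed above, measured 8.48, 7.89, 7.99 and 7.79 in eTreg, 7.94, 8.27, 7.57 and 7.81 in e_iTreg and 9.16, 9.03, 9.50 and 8.90 in iTreg. It was higher in iTreg by 1.11 ± 0.17 and 1.25 ± 0.17.

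All 6 subunits of the MCM2-7 ring rose, by estimates of different size. In iTreg minus eTreg the differences were 0.77 for Mcm4, 0.81 for Mcm6, 1.06 for Mcm2, 1.11 for Mcm7, 1.33 for Mcm3 and 1.40 for Mcm5, each with an SE of 0.16 to 0.23, and the differences between subunits were not tested. Cdc6, the ATPase that recruits the ring, had the largest difference of the licensing genes and is named here after its values were seen. It measured 8.13, 7.56, 7.21 and 6.44 in eTreg, 7.72, 8.09, 6.78 and 7.14 in e_iTreg and 9.24, 9.04, 9.40 and 8.86 in iTreg. The eTreg and e_iTreg arrays spread widely, and the iTreg arrays were closer together and above all of them. The difference was 1.80 ± 0.31 over eTreg, a 3.48-fold higher level (adjusted p = 0.00254). Geminin, which keeps licensing from being repeated in a cycle, rose by 1.25 ± 0.24.

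**Figure D2:**
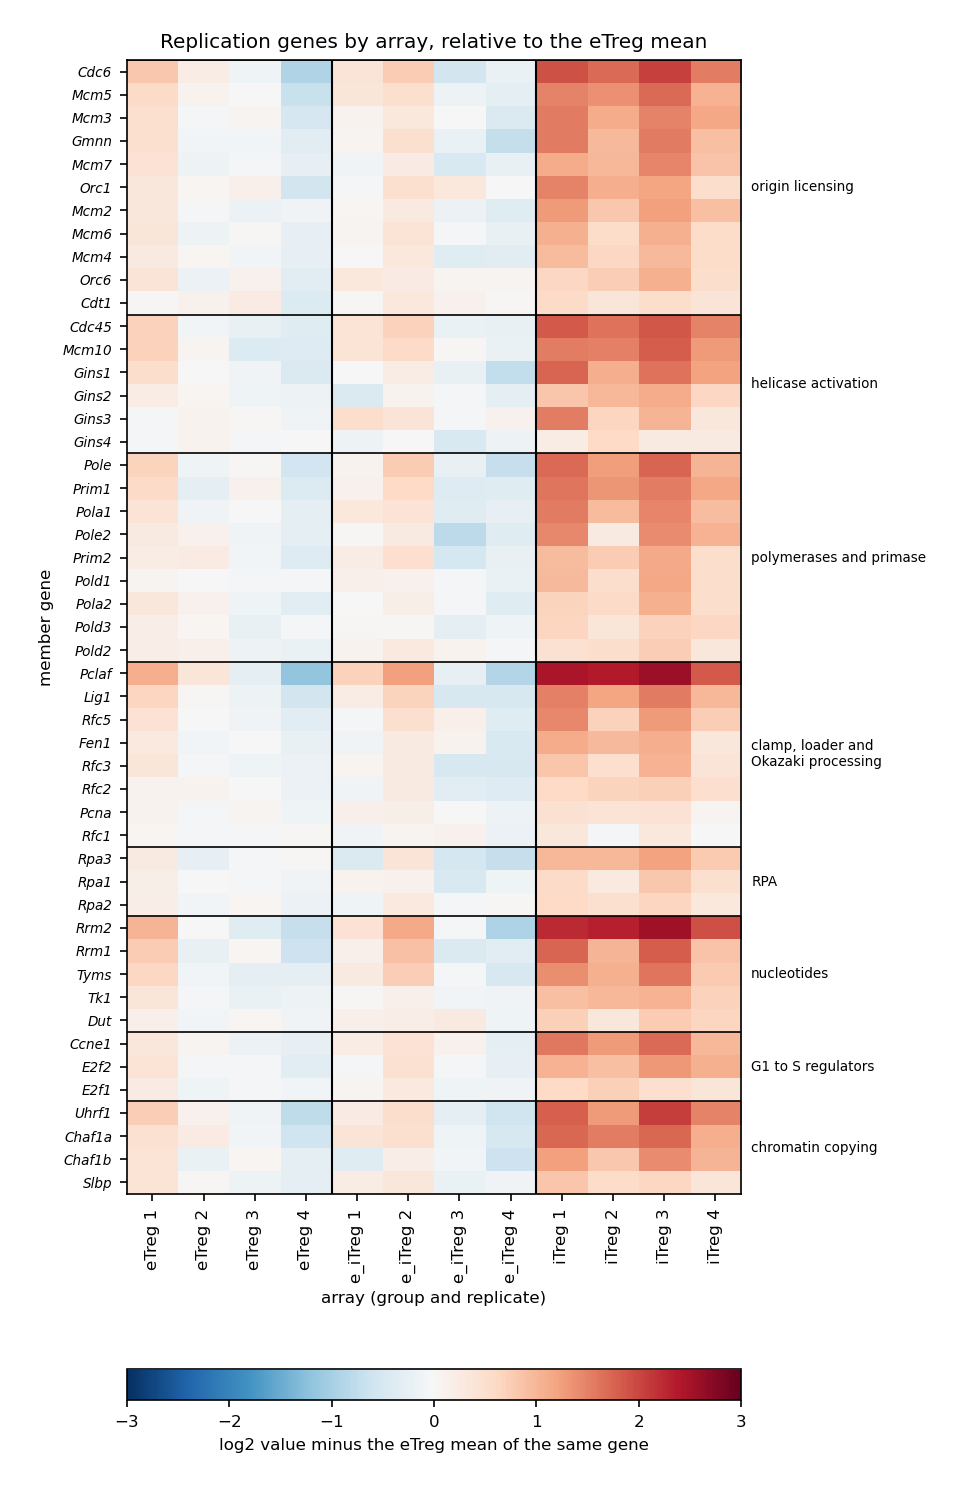
Log2 value of each of the 49 measured replication genes (rows) on each of the 12 arrays (columns), minus the eTreg mean of the same gene; red is above and blue below that mean. The iTreg columns are red for nearly every gene, and within the other groups eTreg replicate 1 and e_iTreg replicate 2 are the reddest columns while replicate 4 of each is the bluest or near it.

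Of the 6 genes that activate the helicase, 5 rose in each comparison, with medians of 1.15 over eTreg and 1.19 over e_iTreg. Cdc45, the helicase cofactor, had the second smallest adjusted p of the 49 genes in iTreg minus eTreg. It measured 7.73, 6.96, 6.82 and 6.68 in eTreg, 7.46, 7.74, 6.85 and 6.83 in e_iTreg and 8.89, 8.69, 8.92 and 8.55 in iTreg. The lowest iTreg array, at 8.55, was above the highest array of the other groups, at 7.74, and the difference from eTreg was 1.71 ± 0.23 (adjusted p = 0.000719). Mcm10, which stabilizes the starting fork, measured 7.74, 7.15, 6.66 and 6.68 in eTreg, 7.48, 7.62, 7.09 and 6.85 in e_iTreg and 8.59, 8.56, 8.87 and 8.33 in iTreg. Its difference was 1.53 ± 0.22 over eTreg and 1.33 ± 0.22 over e_iTreg, without overlap.

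The 4 subunits of the GINS complex had estimates from 0.34 to 1.42 over eTreg, and the differences between subunits were not tested. Gins1 measured 6.96, 6.44, 6.32 and 6.01 in eTreg, 6.42, 6.65, 6.21 and 5.69 in e_iTreg and 8.18, 7.51, 8.05 and 7.64 in iTreg. Its difference over eTreg was 1.42 ± 0.22 (adjusted p = 0.00169), and that of Gins2 was 0.89 ± 0.14. Gins3 spread more within iTreg than within the other groups, with 7.85, 6.95, 7.34 and 6.66 against 6.21 to 6.41 in eTreg. It was higher than in eTreg by 0.89 ± 0.20 (adjusted p = 0.0108), and 0.64 ± 0.20 over e_iTreg missed the threshold (adjusted p = 0.0522). Gins4 measured 9.36, 9.51, 9.34 and 9.39 in eTreg, 9.24, 9.39, 8.95 and 9.24 in e_iTreg and 9.62, 9.99, 9.68 and 9.67 in iTreg. The iTreg arrays were above all others, the difference from eTreg of 0.34 ± 0.11 missed the threshold (adjusted p = 0.0741), and that from e_iTreg of 0.53 ± 0.11 passed (adjusted p = 0.00761).

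All 9 genes of the replicative polymerases and primase rose in both comparisons, with a median of 0.85 in each. Pold2 was close to the threshold over e_iTreg, at 0.39 ± 0.12 (adjusted p = 0.0493), and missed it in 15 of 28 alternative settings. Prim1, the catalytic primase subunit that makes the RNA primer, measured 7.84, 6.96, 7.40 and 6.85 in eTreg, 7.38, 7.85, 6.88 and 6.90 in e_iTreg and 8.86, 8.58, 8.81 and 8.42 in iTreg. The groups did not overlap, and the difference over eTreg was 1.41 ± 0.23 (adjusted p = 0.00197). Pola1, the catalytic subunit of polymerase alpha, measured 7.82, 7.29, 7.39 and 7.10 in eTreg, 7.73, 7.80, 7.04 and 7.16 in e_iTreg and 8.95, 8.35, 8.86 and 8.34 in iTreg, a difference of 1.23 ± 0.20. Pold1, the catalytic subunit of the lagging-strand polymerase delta, varied little among eTreg arrays, at 8.85, 8.77, 8.70 and 8.73. It measured 8.91, 8.89, 8.72 and 8.55 in e_iTreg and 9.74, 9.29, 9.94 and 9.29 in iTreg, higher by 0.80 ± 0.14 than in either group.

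Within the polymerases and primase the catalytic subunits had larger estimates than their partner subunits. In iTreg minus eTreg the differences were 1.43 ± 0.29 for Pole and 1.04 ± 0.26 for Pole2, 1.23 ± 0.20 for Pola1 and 0.71 ± 0.16 for Pola2, 1.41 ± 0.23 for Prim1 and 0.85 ± 0.21 for Prim2, and 0.80 ± 0.14 for Pold1 against 0.58 ± 0.12 for Pold3 and 0.51 ± 0.12 for Pold2. The differences between subunits were not tested. Pole2 was the one polymerase gene whose groups overlapped, because iTreg replicate 2 lay at 7.03 and the other iTreg arrays at 7.81 to 8.22, against 6.47 to 7.05 in eTreg. A second and dim probe set of Pole, at 5.42 in eTreg and 5.15 in iTreg, differed by -0.27 ± 0.16 and did not pass (adjusted p = 0.392).

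The clamp, clamp loader and Okazaki fragment genes ranged more widely than any other subgroup, and 6 of 8 rose in each comparison, with medians of 0.79 and 0.89. Pclaf, a small protein that binds the clamp during replication, had the largest difference of the 49 genes. It measured 9.07, 8.34, 7.72 and 6.78 in eTreg, 8.67, 9.20, 7.74 and 7.10 in e_iTreg and 10.44, 10.37, 10.55 and 9.82 in iTreg. The eTreg and e_iTreg arrays spread widely, from 6.78 to 9.20, and every iTreg array was above them. The difference was 2.32 ± 0.45, or 4.98-fold, over eTreg (adjusted p = 0.00463) and 2.12 ± 0.45 over e_iTreg. Lig1, the ligase that seals Okazaki fragments, measured 9.51, 8.90, 8.70 and 8.31 in eTreg, 9.08, 9.53, 8.38 and 8.38 in e_iTreg and 10.36, 10.04, 10.42 and 9.84 in iTreg, a difference of 1.31 ± 0.27. Fen1, the flap nuclease of the same step, differed by 0.88 ± 0.18, and its second, dimmer probe set by 0.12 ± 0.12, which did not pass.

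Pcna itself, the clamp, did not pass in either comparison. It was bright on every array, at 11.92, 11.76, 11.87 and 11.67 in eTreg, 11.95, 11.98, 11.81 and 11.66 in e_iTreg and 12.25, 12.22, 12.23 and 11.88 in iTreg. In Pcna, iTreg replicate 4 lay within the range of the other groups and the other 3 iTreg arrays above it, and the difference over eTreg was 0.34 ± 0.11 (adjusted p = 0.0671). The loader that opens the clamp had estimates of different size, and the differences between its subunits were not tested. Rfc1, its large subunit, measured 8.18, 8.07, 8.06 and 8.15 in eTreg, 7.94 to 8.24 in e_iTreg and 8.44, 8.05, 8.43 and 8.09 in iTreg, with overlapping groups and a difference of 0.14 ± 0.11 (95% interval -0.10 to 0.38). Rfc5, a small subunit, measured 8.20, 7.78, 7.66 and 7.45 in eTreg, 7.72, 8.26, 7.92 and 7.41 in e_iTreg and 9.21, 8.47, 9.06 and 8.50 in iTreg, a difference of 1.04 ± 0.21 (adjusted p = 0.00559). Rfc2 and Rfc3 differed by 0.62 ± 0.13 and 0.69 ± 0.19, both past the threshold.

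The 3 subunits of RPA, which coats single-stranded DNA, all rose in both comparisons, with the lowest subgroup medians (0.54 and 0.62). Rpa3 measured 9.70, 9.17, 9.37 and 9.46 in eTreg, 8.99, 9.82, 8.90 and 8.74 in e_iTreg and 10.42, 10.42, 10.63 and 10.22 in iTreg. The iTreg arrays were above all others, and the difference over eTreg was 0.99 ± 0.19 (adjusted p = 0.00482). A second probe set of Rpa3 also passed, at 0.54 ± 0.12 (adjusted p = 0.00965). Rpa2, the middle subunit, measured 8.92, 8.64, 8.79 and 8.55 in eTreg, 8.60, 9.01, 8.66 and 8.77 in e_iTreg and 9.33, 9.21, 9.36 and 9.05 in iTreg. Rpa1, the large subunit that holds most of the DNA contact, measured 9.01, 8.82, 8.79 and 8.73 in eTreg, 8.96, 8.96, 8.39 and 8.70 in e_iTreg and 9.42, 9.13, 9.65 and 9.31 in iTreg. For both, every iTreg array was above every other array, by smaller steps than for Rpa3, and the differences over eTreg were 0.51 ± 0.12 and 0.54 ± 0.14. A second, dim probe set of Rpa1, at 5.63 in eTreg and 5.85 in iTreg, did not pass in either comparison. It differed by 0.22 ± 0.11 over eTreg (adjusted p = 0.271) and by 0.28 ± 0.11 over e_iTreg (adjusted p = 0.117).

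All 5 enzymes of deoxynucleotide supply rose in both comparisons, with medians of 1.21 and 1.08. Ribonucleotide reductase makes deoxynucleotides from ribonucleotides, and its small subunit Rrm2 is the one that comes and goes with S phase. Rrm2 measured 7.80, 6.80, 6.41 and 6.08 in eTreg, 7.20, 7.92, 6.73 and 5.84 in e_iTreg and 9.02, 9.09, 9.32 and 8.71 in iTreg. The lowest iTreg array was above the highest of the others, and the difference over eTreg was 2.26 ± 0.38, or 4.80-fold (adjusted p = 0.0023). A second, dim probe set of Rrm2 gave 1.86 ± 0.20 (adjusted p = 0.000385). The large subunit Rrm1 differed by 1.36 ± 0.32 and thymidylate synthase, Tyms, by 1.21 ± 0.25. Thymidine kinase, Tk1, measured 8.25, 7.86, 7.69 and 7.72 in eTreg, 7.91, 8.04, 7.79 and 7.76 in e_iTreg and 8.78, 8.87, 8.93 and 8.57 in iTreg. Its spread was small and its difference over eTreg of 0.91 ± 0.13 had an adjusted p of 0.00111. Dut, which removes dUTP, measured 8.21, 7.99, 8.13 and 7.96 in eTreg, 8.22, 8.27, 8.34 and 7.94 in e_iTreg and 8.79, 8.41, 8.83 and 8.73 in iTreg, a difference of 0.62 ± 0.12. Its dim second probe set, at 5.22 in eTreg and 5.05 in iTreg, differed by -0.17 ± 0.11 and did not pass.

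The 3 measured regulators of the step from G1 to S rose in both comparisons, with medians of 1.08 and 1.06. Ccne1, cyclin E1, had the smallest adjusted p of the 49 genes in iTreg minus eTreg. It measured 7.82, 7.58, 7.30 and 7.25 in eTreg, 7.72, 7.94, 7.63 and 7.22 in e_iTreg and 9.08, 8.77, 9.20 and 8.50 in iTreg. The groups did not overlap, and the difference over eTreg was 1.39 ± 0.18 (adjusted p = 0.000622). E2f2, an activating E2F, measured 8.07, 7.62, 7.59 and 7.33 in eTreg, 7.60, 8.11, 7.59 and 7.40 in e_iTreg and 8.69, 8.55, 8.97 and 8.72 in iTreg, a difference of 1.08 ± 0.17. E2f1, the other activating E2F of the set, measured 7.69, 7.34, 7.42 and 7.38 in eTreg, 7.53, 7.75, 7.32 and 7.35 in e_iTreg and 8.05, 8.16, 7.95 and 7.83 in iTreg. It differed by 0.54 ± 0.12 over eTreg (adjusted p = 0.00968).

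The 4 genes that rebuild chromatin on new DNA rose in both comparisons, with the highest subgroup medians, 1.32 and 1.39. Chaf1a, the large subunit of the histone chaperone CAF-1, measured 6.99, 6.78, 6.45 and 5.93 in eTreg, 6.92, 7.02, 6.42 and 6.06 in e_iTreg and 8.25, 8.07, 8.26 and 7.62 in iTreg, a difference of 1.51 ± 0.24. Its partner Chaf1b measured 8.77, 8.14, 8.42 and 8.07 in eTreg, 7.99, 8.56, 8.27 and 7.73 in e_iTreg and 9.59, 9.16, 9.77 and 9.37 in iTreg, a difference of 1.12 ± 0.19. Both genes had iTreg arrays above every other array. Uhrf1, which brings the maintenance DNA methyltransferase to hemimethylated DNA, measured 8.75, 8.14, 7.92 and 7.27 in eTreg, 8.26, 8.55, 7.73 and 7.43 in e_iTreg and 9.80, 9.29, 10.11 and 9.52 in iTreg. It was higher over eTreg by 1.66 ± 0.29, or 3.16-fold (adjusted p = 0.00253). Slbp, which binds the stem-loop of histone messages, differed by 0.59 ± 0.16 (adjusted p = 0.0274), and iTreg replicate 4 at 9.64 lay below eTreg replicate 1 at 9.68. Over e_iTreg Slbp was close to the threshold, at 0.53 ± 0.16 (adjusted p = 0.0445), and missed it in 14 of 28 alternative settings.

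Within each group many members shared the array on which they were highest or lowest. The mean log2 value of the 49 members was 8.49, 8.10, 8.03 and 7.77 on the eTreg arrays, 8.21, 8.50, 7.93 and 7.79 on the e_iTreg arrays and 9.28, 9.01, 9.36 and 8.89 on the iTreg arrays. The lowest iTreg array was above the highest array of the other groups, and eTreg and e_iTreg covered nearly the same range. Among the eTreg arrays, replicate 1 was highest for 45 of 49 members, against 23.1% of all probe sets, and replicate 4 lowest for 39, against 23.6%. In e_iTreg, replicate 2 was highest for 44 members, against 20.5% of all probe sets, while the lowest array was split between replicate 4 for 30 members and replicate 3 for 16, against 26.9% and 16.2%. In iTreg replicate 3 was highest and replicate 4 lowest for 33 each, against 22.2% and 27.3%. The median SD of the members was 0.29 in eTreg, 0.31 in e_iTreg and 0.25 in iTreg, against 0.14, 0.16 and 0.16 over all probe sets.

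Several lists of markers varied along the same arrays in the groups without DTx. The B cell marker mean was 8.04, 7.81, 6.14 and 6.24 for eTreg replicates 1 to 4. In e_iTreg it was 7.65, 7.98, 7.39 and 6.13. The array highest in members was thus also the array highest in B cell markers in each of these groups. The same arrays, eTreg replicate 1 and e_iTreg replicate 2, were highest in CD8 T and NK cell markers, at 7.32 and 7.38. They were also highest in myeloid markers, at 7.29 and 7.30. The other marker lists were not highest on both of these arrays. On the iTreg arrays the B cell marker mean was 7.55, 7.05, 7.32 and 7.26. The eTreg and e_iTreg arrays with B cell marker means above those of iTreg (eTreg replicates 1 and 2 and e_iTreg replicates 1 and 2) had member means of 8.10 to 8.50, below all 4 iTreg arrays. With the B cell marker mean as a covariate, 46 members passed in each comparison with iTreg, with medians of 0.96 over eTreg and 1.05 over e_iTreg, and 5.05% and 6.81% of all probe sets were called higher. With the 3 arrays lowest in B cell markers left out, 15 members passed over eTreg and 34 over e_iTreg, beside 0.897% and 3.75% of all probe sets called higher. Without iTreg replicate 4, the array highest in plasma cell markers, 47 members passed in each, with 4.63% and 5.53% of all probe sets called higher. On the remaining iTreg arrays the plasma cell markers averaged 7.95, 7.60 and 7.76, against 7.22 to 7.61 in eTreg and 7.37 to 7.68 in e_iTreg. The part of the B cell, plasma cell, neutrophil, CD8 T, NK and myeloid markers in the result was not tested. Past the threshold in iTreg minus eTreg were Gzma, a granule protease (2.20), Nkg7, a granule membrane protein (1.85), and Gzmk (0.58) among CD8 T and NK cell markers. Among myeloid markers they were Itgam, an integrin chain of myeloid and NK cells (1.68), Bst2 (0.87) and Cst3 (0.57). In these lists 10 of 13 and 11 of 14 markers did not pass. Klrb1c was at -0.20, Eomes at -0.15 and Siglech at -0.18, while 10 of 13 and 12 of 14 differences were positive.

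**Figure D3:**
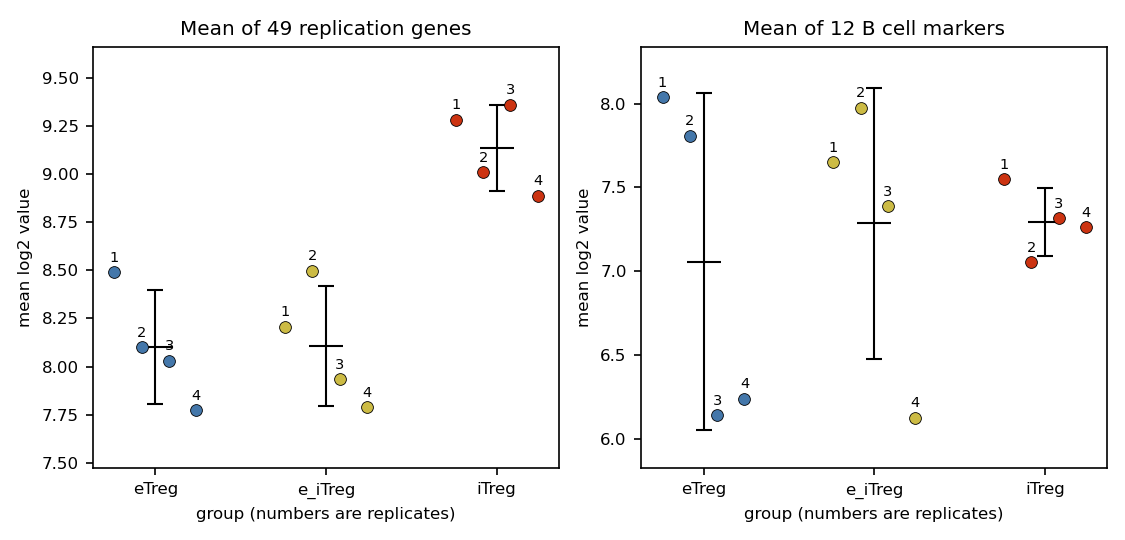
Mean log2 value of the 49 replication genes (left) and of 12 B cell markers (right) on each array; numbers are replicates, the bar is the group mean and the whiskers the SD over 4 arrays. The iTreg arrays lie between 8.89 and 9.36 for the replication genes, above all others, and between 7.05 and 7.55 for the B cell markers, inside the range of the others. The y axes do not start at 0.

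Members with a large difference between groups were also those that varied most within eTreg and within e_iTreg. Pclaf had the largest SD in eTreg (0.97) and in e_iTreg (0.94), and Rfc1 the smallest in eTreg (0.06). Across the 49 members, the SD over the e_iTreg arrays and the difference of iTreg minus eTreg, which use different arrays, had a Pearson r of 0.847, against 0.291 over all probe sets. The SD over the eTreg arrays and the difference of iTreg minus e_iTreg had an r of 0.834, against 0.238. Within iTreg the largest SD was that of Pole2 (0.55), while Rrm2, Cdc6 and Cdc45, named here after their values were seen, had SDs of 0.25, 0.23 and 0.18 beside a median of 0.25. These values describe genes on the same arrays, which share their RNA, their amplification and their normalization, and genes are not independent replicates.

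**Figure D4:**
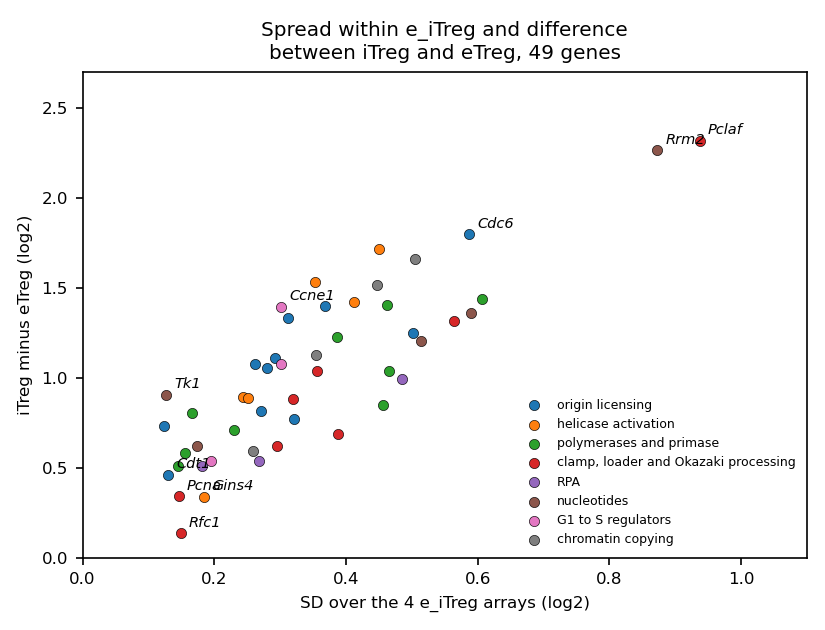
SD over the 4 e_iTreg arrays (x axis, log2) against the log2 difference of iTreg minus eTreg (y axis) for the 49 measured replication genes, coloured by subgroup. Pclaf and Rrm2 lie at the upper right, and Rfc1, Gins4, Pcna and Cdt1 at the lower left (Pearson r = 0.847, n = 49 genes).

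The wider pathway was described with 111 further genes in 6 lists, of which 102 were measured. In iTreg minus eTreg 38 were higher and 4 lower, against 5.36% and 4.63% of all probe sets, with a median of 0.30 and a range of -0.53 to 2.60. In iTreg minus e_iTreg 50 were higher and 1 lower, against 6.49% and 4.75%, with a median of 0.37. Of those that passed, 14 and 16 were higher by a log2 difference of at least 1. The largest over eTreg, named here after its value was seen, was Ccna2, cyclin A2, at 2.60 ± 0.57 (adjusted p = 0.00955). None passed limma's test in e_iTreg minus eTreg, where 4 had an unadjusted p below 0.05, against 7.01% of all probe sets. The medians of the 49 members were 1.04 and 1.05.

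Among 15 other origin genes, licensing kinases and MCM relatives, 5 were higher and 1 lower in iTreg minus eTreg. The shares over all probe sets were 5.36% and 4.63%. Fbxo5, an inhibitor of the ubiquitin ligase that ends mitosis, rose by 1.66 ± 0.22 (adjusted p = 0.000669), Ticrr (treslin), which fires origins, by 1.83 ± 0.33 and its partner Mtbp by 0.79 ± 0.15. Donson, a fork protein, fell by 0.53 on the log2 scale (adjusted p = 0.0114). In iTreg minus eTreg the subunits of the origin recognition complex fell into separate sets, which was noticed after their values were seen. Orc1, which measured 6.71, 6.43, 6.52 and 5.82 in eTreg, 6.32, 6.86, 6.68 and 6.36 in e_iTreg and 7.87, 7.46, 7.55 and 6.91 in iTreg, rose by 1.07 ± 0.21. Orc6, at 8.58, 8.02, 8.34 and 7.87 in eTreg, 8.52, 8.44, 8.28 and 8.27 in e_iTreg and 8.81, 8.94, 9.26 and 8.73 in iTreg, rose by 0.73 ± 0.15. The remaining subunits did not pass in either comparison, and in iTreg minus eTreg Orc2 was at 0.10 (95% interval -0.16 to 0.36), Orc3 at -0.04 (-0.33 to 0.25), Orc4 at -0.05 (-0.30 to 0.21) and Orc5 at -0.00 (-0.29 to 0.29). The upper ends of these 4 intervals lie below the estimates of Orc1 and Orc6. In iTreg minus e_iTreg the sets were less separate. Orc2 was at 0.29 (95% interval 0.03 to 0.55) and Orc4 at 0.21 (-0.04 to 0.47), overlapping the interval of Orc6 (0.56, 0.23 to 0.88). There Orc3 was at 0.09, Orc5 at 0.06 and Orc1 at 0.89. The difference between subunits was not tested.

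**Figure D5:**
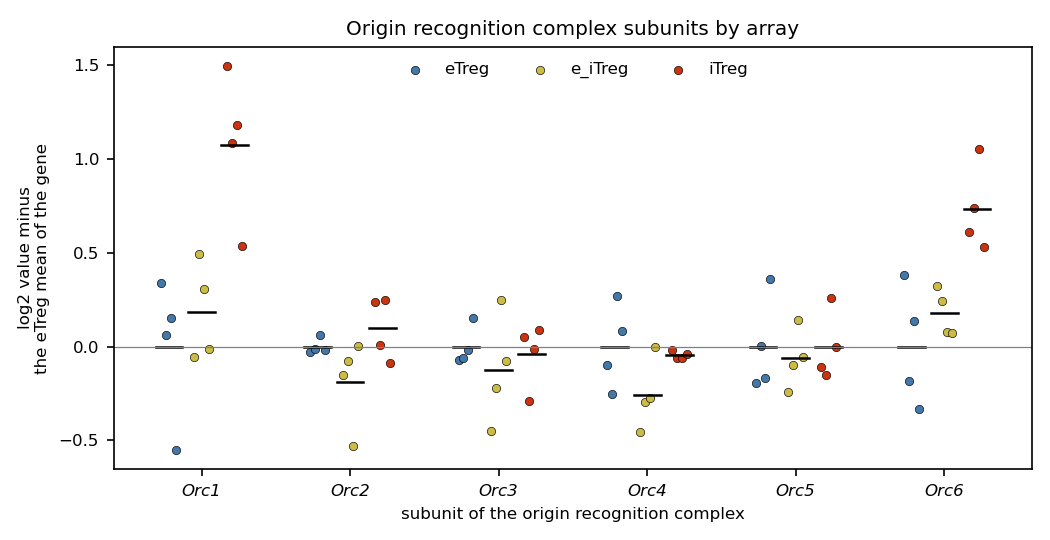
Log2 value of the 6 subunits of the origin recognition complex (x axis) on each array, minus the eTreg mean of the same gene (y axis); points are arrays and bars are group means over 4 arrays. The iTreg means of Orc1 and Orc6 lie at 1.07 and 0.73, and those of Orc2, Orc3, Orc4 and Orc5 lie between -0.05 and 0.10.

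Of 21 other replisome, fork protection and Okazaki genes, 10 were higher and 1 lower in iTreg minus eTreg. Over all probe sets the shares were 5.36% and 4.63%. Dna2, a nuclease and helicase that trims Okazaki flaps, rose by 0.72 ± 0.09 (adjusted p = 0.000624), Tipin, of the fork protection complex, by 1.51 ± 0.26 and Dscc1, of an alternative clamp loader, by 1.43 ± 0.23. Pold4, the smallest subunit of polymerase delta, went the other way from Pold1, Pold2 and Pold3. It was at 9.79 ± 0.12 (SD, n = 4) in eTreg, 9.78 ± 0.10 in e_iTreg and 9.44 ± 0.13 in iTreg, and it fell by 0.35 and 0.34 in the 2 comparisons (adjusted p = 0.0383 and 0.0389).

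Other nucleotide genes were described in 2 lists, beside shares of 5.36% higher and 4.63% lower over all probe sets in iTreg minus eTreg. Of 21 other pyrimidine and deoxynucleotide genes 4 were higher and 2 lower in iTreg minus eTreg, with a median of 0.30. Dck, deoxycytidine kinase, was at 0.77 ± 0.18, Cmpk1, a pyrimidine monophosphate kinase, at 0.59 ± 0.14 and Mthfd2, a mitochondrial folate enzyme, at 0.55 ± 0.13. The lower genes were Ctps2, a CTP synthase, at -0.35 ± 0.10 and Dguok, the mitochondrial deoxyguanosine kinase, at -0.34 ± 0.10. Of 14 purine synthesis genes, with a median of 0.13, 2 were higher, both of the salvage route, with Hprt at 0.52 ± 0.12 and Aprt at 0.32 ± 0.09, and Adsl of the de novo route was at 0.30 ± 0.10 without passing (adjusted p = 0.0735).

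Of 20 other genes of E2F, pocket protein and G1 to S control, 10 were higher and 0 lower in iTreg minus eTreg. For this and the next list, the shares over all probe sets were 5.36% and 4.63%. Cdk2, the kinase partner of cyclin E, rose by 0.77 ± 0.12, E2f7, an E2F that represses, by 1.40 ± 0.23 and E2f3, another activating E2F, by 0.84 ± 0.15. Of 11 other chromatin copying genes, 7 were higher and 0 lower. Hells, a chromatin remodeller, rose by 1.61 ± 0.29, Dnmt1, the maintenance methyltransferase that Uhrf1 recruits, by 0.89 ± 0.16 and Hat1, which acetylates new histone H4, by 0.79 ± 0.15.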

How the data were processed

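RNA of 12 samples was measured on Affymetrix mouse gene arrays. Per the labels' protocols, 2 ng of RNA went through 2 rounds of amplification. The deposited values are log2 expression values per probe set, made by the authors with oligo and RMA per the submitters' processing notes; their versions and settings, and a build for the arrays, are not given in the sources used here. RMA corrects background, equalizes the arrays' distributions and summarises probes, so levels are comparable between arrays for a probe set but not between probe sets. The annotation gave 1 gene symbol to 23521 of 41345 probe sets (22180 genes), more than 1 symbol to 1814 and no symbol to 16010. RefSeq's gene table held the gene number of 23328 of the 23521.

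One linear model of the 3 groups was fitted to all 12 arrays with limma 3.58.1 under R 4.3.3, using its lmFit and eBayes functions (9 residual and 5.78 prior degrees of freedom). Tests were two-sided with Benjamini-Hochberg adjustment over 23521 probe sets, and a call is an adjusted p below 0.05 with no fold minimum. Differences are log2 ± SE, and the median SE was 0.121. Pairwise correlations of arrays were 0.966 to 0.993. The number of arrays limits the precision, and the p-values reflect only how these samples spread. On simulated data of 23521 probe sets, the model called 92.2% of genes given a log2 change of 1 and 42.4% of those given 0.5 in iTreg minus eTreg. For iTreg minus e_iTreg it called 91.3% and 36.7%. The simulation gave independent normal noise at each probe set's own SD and put changes in 200 probe sets drawn from all. Members spread more within eTreg and e_iTreg, with median SDs of 0.29 and 0.31 against 0.14 and 0.16 over all probe sets. The rates therefore do not describe the members.

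The members, the gene lists and the rule for named genes were chosen with earlier results of these data known. The rule took per subgroup the 3 members with the smallest p in iTreg minus eTreg and members that missed the threshold, the 8 members with the smallest p in e_iTreg minus eTreg, and per list of other genes the 3 with the smallest p and those called against the list's median. Alternatives were other normalizations, filters, error models and thresholds, other probe sets, covariates for markers and sex-linked signal, and leaving out arrays. The fit without the 3 arrays that each carried the signal of 1 sex was chosen after seeing the data.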

Additional observations from a re-analysis of the deposited data

Results flagged for a closer look

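Among 147 combinations of a member and a group, 2 had 1 array far from the other 3, by Dixon's test of the gap to the nearest array as a share of the group's range, and chance alone gives about 1 in 20 groups. Gins4 in iTreg was highest in replicate 2 at 9.99, with the other arrays at 9.62 to 9.68 (gap 0.833 of the range). Pcna in iTreg was lowest in replicate 4 at 11.88, with the other arrays at 12.22 to 12.25 (gap 0.912 of the range). Both genes missed the threshold in iTreg minus eTreg.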

How the results depend on the processing

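The count of members called was 46 for iTreg over eTreg and 45 for iTreg over e_iTreg, and under every alternative run each called member was higher in iTreg. With the 3 arrays that were lowest in B cell markers left out, 15 members passed in iTreg minus eTreg, with fewer samples in the fit, and with the sex-linked signal as a covariate 28 passed in iTreg minus e_iTreg, where the cause was not tested. Leaving out 1 array at a time gave 39 to 47 in each comparison, lowest without eTreg replicate 4 in the first and without e_iTreg replicate 3, e_iTreg replicate 4 or iTreg replicate 3 in the second, and 0 to 0 in e_iTreg minus eTreg. The other alternatives gave 40 to 48 and 34 to 47. In every setting, 15 members passed over eTreg (Mcm2, Mcm3, Mcm5, Mcm10, Cdc45, Gins1, Prim1, Pclaf, Rrm2, Tk1, Ccne1, E2f2, Uhrf1, Chaf1a and Chaf1b) and 27 over e_iTreg. With the dim second probe set, Pole was at -0.27 over both groups, Dut at -0.17 over eTreg and -0.027 over e_iTreg, and Fen1 at -0.10 over e_iTreg, none past the threshold. Median centring changed the share of higher calls among all probe sets called in iTreg minus e_iTreg from 57.7% to 79.9%. Same-numbered arrays did not deviate together (r from -0.15 to 0.24, over 0.1 in 3 of 12 pairs), and the replicate number as a block gave 48, 46 and 0 calls. Array number limits small differences, and the dim second probe sets lie near the low end of the scale.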
